A study of Drosophila melanogaster with 3 samples.

Results

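The DNA replication genes of Drosophila were followed across testis apical tip, male thorax and female thorax. The set is a list of 33 genes that encode the origin recognition complex, the factors that load the helicase, the helicase and its partners, RPA, the sliding clamp and its loader, Fen1, DNA ligase and ribonucleotide reductase. Probes were taken by their locus tag, whatever their signal. The list itself was chosen with earlier results of these data known. Of the 33 genes, 32 had a probe, out of 13046 named genes on the array, with 44 probes among 32162. The gene lat, which encodes the Orc3 subunit, was not analysed here.

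All flies were of the wild-type strain OreR. Testis apical tips came from males 2 to 4 days old per the series description, with the testis sheath removed. The methods of the study give a wider age range, and mated flies, for all dissections, thorax among them. The labels give no age for thorax. They are a mixture of germ cells, up to young spermatocytes, and of the somatic cells around them, and not sorted germ cells. Male and female thorax is largely flight muscle. Each tissue had 4 arrays from separate pools of RNA, and each array was hybridized with 1 sample in 1 color.

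Replication starts where the origin recognition complex sits on DNA. With Cdc6 and the Cdt1 protein, which flies call double parked, it loads the MCM helicase before S phase, and Cdc45 and the GINS complex then switch the helicase on. Behind the helicase, RPA covers the single strands, the RFC complex loads the PCNA ring that holds the polymerases, and Fen1 and DNA ligase finish the lagging strand. Spermatogonia divide by mitosis and young spermatocytes pass through a last S phase before meiosis, whereas adult flight muscle no longer divides.

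Values are log2 signals relative to the 75th percentile of all probes on the same array, so that 0 is a bright probe and negative values are usual. This unit is called the scaled log2 signal below. Tissues were compared with limma over the 24878 probes that passed a filter on dim signal, all 44 member probes among them, and a call is a Benjamini-Hochberg adjusted p under 0.05. A gene with several probes is given by its brightest probe. RNA came from whole pieces of tissue, so fewer cells of a type and less RNA per cell cannot be told apart.

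The scaling sets the zero of every difference between testis and thorax. At the 75th percentile scale the median probe was 1.05 lower in tips than in male thorax and 1.05 lower than in female thorax, on the log2 scale. Without scaling the same medians were 1.29 and 1.60 higher in tips, with quantile normalization they were -0.36 and -0.42, and with scaling on the median they were -0.15 and -0.21. The share of calls that were higher in tips moved with it. Against male thorax it was 38.3% at the 75th percentile, 66.3% without scaling, 45.7% with quantile normalization and 48.3% with median scaling. Against female thorax it was 37.8%, 70.1%, 44.6% and 47.3% in the same order. For genes called lower or near 0, the difference is therefore also given less the median of all probes.

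Some arrays stood apart. Testis apical tip replicate 1 correlated with the other 3 tip arrays at 0.809 to 0.812 over all probes, whereas replicates 2 to 4 reached a highest correlation within their tissue of 0.992 to 0.996. It had 57.0% of probes well above background, against 65.7% to 74.6% on the other tip arrays. Of the 32 genes, 28 were above the other 3 tip arrays on replicate 1 and 2 were below. By probe, 10 of 44 were below the other 3 tip arrays and 8 of these by over 3 log2 units. In 7 of the 11 genes with 2 or 3 probes, replicate 1 was below the other 3 by some probes and not by others. These counts were not taken over all probes, so they cannot be read as a trait of replication genes. Muscle genes marked the thorax: the myosin heavy chain gene Mhc was lower in tips with a log2 difference of -8.08 against male thorax, and all 6 muscle markers were called lower. All 9 germ cell markers were called higher in tips than in male thorax. Against female thorax 8 of the 9 were called higher, beside 28.8% of all probes, and nos was not. Male thorax replicate 3 had more signal of some of these markers than the other male arrays, but less of nos than male replicates 1 and 2. On replicate 3 bgcn was -5.13, against -7.39 to -7.28 on the other male arrays, and can was -5.49, against -7.12 to -6.66. The part of these markers in the results was not tested. Of 5 markers of somatic cyst and hub cells, 2 were called higher than in male thorax and 1 lower. The marker counts against male thorax stand beside 29.3% of all probes called higher and 47.2% called lower. With 5 genes the cyst and hub count is a description only.

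Replication genes were mostly higher in testis tips. Against male thorax, 21 of the 32 genes were called higher and 2 lower, beside 29.3% of all tested probes called higher and 47.2% called lower. Their median log2 difference was 1.90, beside -1.05 for all probes. Against female thorax, 19 were called higher and 4 lower, beside 28.8% and 47.4% of all probes, with a median of 1.70 beside -1.05. The 2 comparisons share the tip arrays. No scaling and median scaling move all genes up alike against the 75th percentile, so genes already positive stay so under them. With quantile normalization, which does not move all genes alike, the 21 genes called higher against male thorax and the 19 against female thorax also had positive differences. Of the 2 called lower against male thorax, 1 was negative with quantile normalization, 1 with median scaling and 0 without scaling. The 4 called lower against female thorax were all negative with quantile normalization and with median scaling, and 0 were without scaling. All tip arrays lay above all male thorax arrays in 21 genes and below in 1, beside 26.8% and 45.4% of all probes, and against female thorax these counts were 18 and 1, beside 26.5% and 45.9%. Without tip replicate 1 the counts were 23 higher and 4 lower against male thorax, and 20 higher and 6 lower against female thorax. Calls over all probes rose as well. Of 24877 probes, 8710 were then higher and 12702 lower against male thorax, beside 7296 and 11747 with all arrays. Against female thorax 8633 were higher and 12743 lower, beside 7175 and 11796. Within slide B, which holds tips and male thorax with 2 arrays each, 11 genes were called higher and 0 lower by limma, beside 15.9% and 27.0% of all probes, and at an unadjusted p under 0.05 these counts were 15 and 0, beside 19.3% and 33.6%. That fit had 2 arrays a group, with tip replicate 1 among them. Within slide C, which holds tips and female thorax, 20 were called higher and 6 lower, beside 37.3% and 52.7% of all probes.

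**Figure D1:**
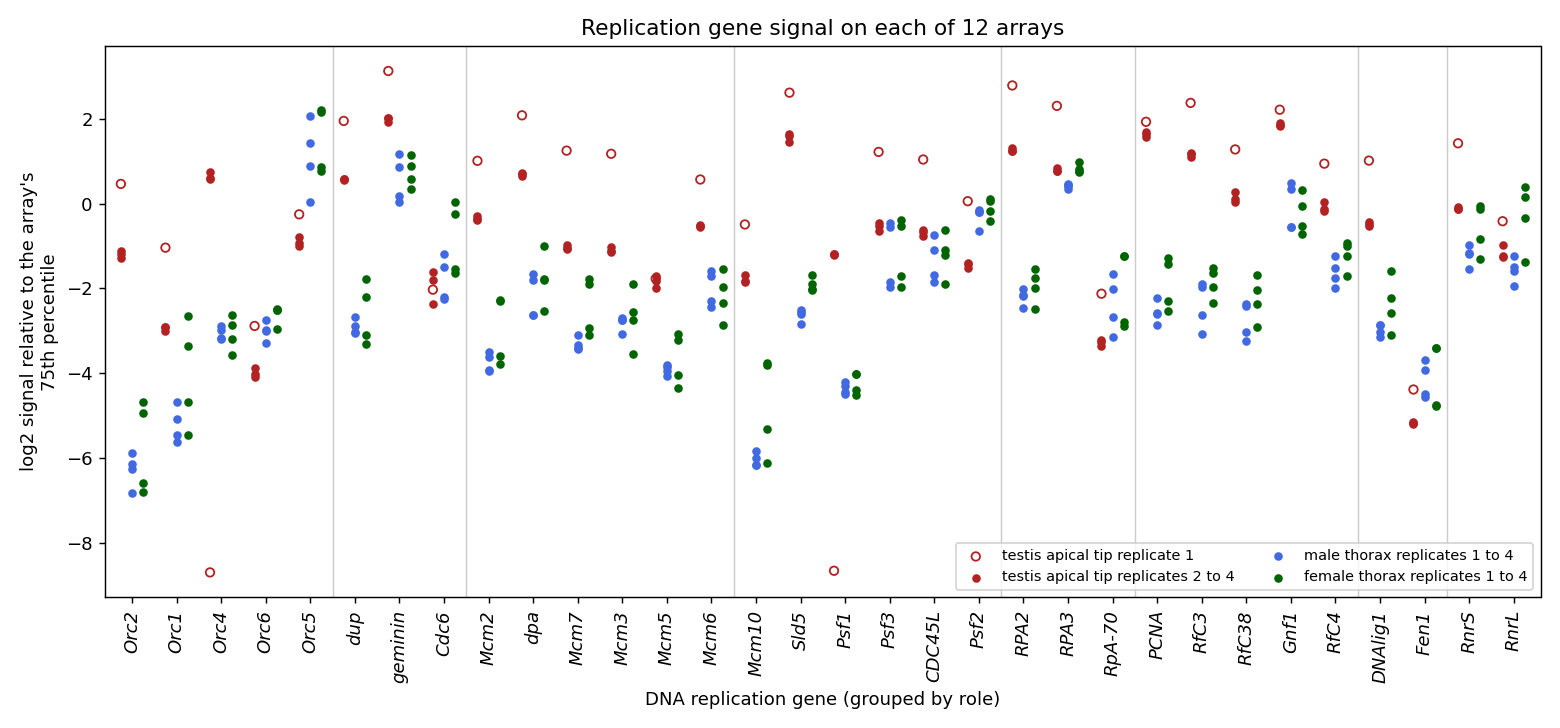
Scaled log2 signal (y axis, log2 relative to the 75th percentile of the array) of 32 replication genes (x axis, grouped by role, ordered within a group by the difference between tip and male thorax) on 12 arrays, with 1 point per array. Open circles are testis apical tip replicate 1, which lies above the other 3 tip arrays in 28 genes and far below them in Orc4 and Psf1.

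Calls in the origin recognition complex went both ways. Orc1, Orc2, Orc4, Orc5 and Orc6 encode subunits of the ring and its partner that mark origins. Of the 5 measured, 2 were called higher in tips than in male thorax (Orc2 and Orc1), 2 lower (Orc5 and Orc6), and Orc4 was not called. These counts stand beside 29.3% of all probes called higher and 47.2% called lower, and with 5 genes they are a description only. Orc2 (CG3041, arm 3R) had scaled log2 signals of 0.46, -1.19, -1.28 and -1.12 on tip replicates 1 to 4, against -6.83, -6.14, -5.88 and -6.25 in male thorax and -4.68, -6.79, -6.58 and -4.93 in female thorax. Every tip array lay above every thorax array. The log2 difference was 5.49 ± 0.55 (SE, n = 4 arrays each) against male thorax, with limma adjusted p = 2.43e-06, and 4.96 ± 0.55 against female thorax, with limma adjusted p = 5.96e-06. Its thorax signal was well above background on 1 male and 2 female arrays. Its other 2 probes were not well above background on any male thorax array, and both were called higher, by at least 8.90-fold and at least 3.90-fold. These bounds set the tip mean against the dimmest signal that counted as well above background on each male array.

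Orc1 encodes the largest ATPase subunit of the complex. It had -1.04, -2.92, -3.0 and -2.92 in tips, against -5.61, -5.08, -4.66 and -5.45 in male thorax and -2.65, -5.45, -4.67 and -3.35 in female thorax. Tips and male thorax did not overlap, whereas female thorax replicate 1 was above tip replicates 2 to 4. The differences were 2.73 (limma adjusted p = 0.00184) against male thorax and 1.56 (limma adjusted p = 0.0394) against female thorax, and without tip replicate 1 the second was 1.09 with limma adjusted p = 0.0984. The other Orc1 probe was called against male thorax, with a difference of 2.25, and not against female thorax, with 0.99.

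Orc5 (CG7833, arm 2L) ran the other way by its brighter probe. That probe had -0.25, -0.79, -1.0 and -0.92 in tips, against 2.06, 1.43, 0.88 and 0.03 in male thorax and 2.22, 2.16, 0.87 and 0.77 in female thorax. All 4 tip arrays were below all thorax arrays, with differences of -1.84 (limma adjusted p = 0.00417) and -2.25 (limma adjusted p = 0.0011), but these turned to 0.50 and 0.41 without scaling. They stayed negative with quantile normalization, at -1.78 and -2.18, and with median scaling, at -0.93 and -1.40. The other Orc5 probe had -7.25, -0.51, -0.47 and -0.55 in tips, against -3.69, -4.54, -4.67 and -4.39 in male thorax. Its difference was 2.13 (limma adjusted p = 0.147), so the direction of Orc5 depends on the probe. Orc6 had -2.88, -3.88, -4.08 and -4.0 in tips, against -3.29, -3.01, -2.75 and -2.98 in male thorax and -2.50, -2.95, -2.50 and -2.50 in female thorax. It was called lower, with differences of -0.70 and -1.10 (limma adjusted p = 0.0423 and 0.00435) and overlapping arrays. Less the median of all probes the Orc6 differences were 0.35 and -0.05, and without scaling, with quantile normalization and with median scaling the difference from male thorax was 1.64, 0.50 and 0.20, and that from female thorax 1.55, -0.016 and -0.26.

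Orc4 (arm 2R) was not called over all arrays and was called when tip replicate 1 was left out. It had -8.69 on replicate 1 and 0.60, 0.74 and 0.58 on replicates 2 to 4 in tips, against -2.97, -2.88, -3.17 and -3.18 in male thorax and -2.62, -2.87, -3.56 and -3.19 in female thorax. On replicates 2 to 4 tips were above all thorax arrays, and on replicate 1 the probe was not well above background. Over all arrays the difference from male thorax was 1.36 (95% interval -2.46 to 5.18, limma adjusted p = 0.492), and without replicate 1 it was 3.69 (limma adjusted p = 3.85e-08). With all arrays kept, Orc4 was called with array weights in both comparisons, and without scaling against female thorax.

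Of the 3 loading factors, dup and geminin were called higher and Cdc6 was not. Among all probes, 29.3% were called higher and 47.2% lower against male thorax, and 28.8% and 47.4% against female thorax. With 3 genes the calls are a description only. The gene dup (CG8171, arm 2R) encodes the Cdt1 protein that brings MCM to origins. It had 1.95, 0.58, 0.56 and 0.58 in tips, against -3.02, -2.88, -2.68 and -3.05 in male thorax and -1.77, -3.09, -3.30 and -2.21 in female thorax. With no overlap, the differences were 3.82 ± 0.41 and 3.51 ± 0.41 (SE, n = 4 arrays each; limma adjusted p = 4.03e-06 and 8.66e-06), folds of 14.2 and 11.4. The gene geminin encodes the inhibitor that binds Cdt1 and blocks a second round of loading, and it was higher in tips by 1.71 and 1.53 with no overlap. Cdc6 (CG5971, arm 3L) encodes the ATPase that joins the origin complex to load the MCM helicase. It had -2.03, -2.36, -1.61 and -1.81 in tips, against -1.19, -1.50, -2.24 and -2.19 in male thorax and 0.04, -0.24, -1.62 and -1.55 in female thorax. In both sexes the 2 arrays of slide A, replicates 1 and 2, were above the other 2. The difference from male thorax was -0.17 (95% interval -1.10 to 0.76, limma adjusted p = 0.73), or 0.88 less the median of all probes. Against female thorax it was called lower, at -1.11 (limma adjusted p = 0.0325), but within slide C the difference was -0.12 (limma adjusted p = 0.424). Without scaling it was 1.55, with quantile normalization -0.57 and with median scaling -0.26.

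All 6 MCM helicase genes were called higher in tips in both comparisons, and in no case did tip and thorax arrays overlap, beside 26.8% and 26.5% of all probes with all tip arrays on top. The 6 proteins form the ring that unwinds DNA at the fork. The differences from male thorax ran from 1.75 to 3.73 and those from female thorax from 1.85 to 2.98. Mcm2 (CG7538, arm 3R) had 1.01, -0.39, -0.30 and -0.37 in tips, against -3.91, -3.62, -3.50 and -3.95 in male thorax and -2.28, -3.79, -3.58 and -2.29 in female thorax. Its differences were the largest of the 6, 3.73 ± 0.43 and 2.98 ± 0.43 (SE, n = 4 arrays each; limma adjusted p = 8.08e-06 and 5.68e-05). Mcm6 (CG4039, X) had the smallest difference from male thorax. It had 0.57, -0.56, -0.50 and -0.54 in tips, against -2.43, -2.30, -1.70 and -1.60 in male thorax and -1.96, -2.86, -2.34 and -1.54 in female thorax, which gave 1.75 and 1.92 (limma adjusted p = 0.000996 and 0.000512). The second Mcm6 probe, at -4.28 on tip replicate 1 and between -0.87 and -0.81 on the other 3, gave 0.54 and was not called. Between these, dpa, which encodes the Mcm4 subunit, was higher by 3.22, Mcm7 by 2.85, Mcm3 by 2.29 and Mcm5 by 2.09 against male thorax. Mcm5 was also 1 of the 2 genes in which tip replicate 1 lay within the other 3 tip arrays, the other being Cdc6. The second Mcm3 probe gave 3.56, and the second Mcm7 probe, not well above background on any thorax array, was called higher than in male thorax by at least 1.46-fold. Within slide B alone, Mcm3, Mcm5, Mcm6 and Mcm7 lost their calls, as did Orc1, geminin, CDC45L, RnrS, Gnf1 and RfC4.

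The factors that activate the helicase were less uniform. Of Mcm10, Cdc45 and the 4 GINS genes, 3 were called higher against male thorax (Mcm10, Sld5 and CDC45L) and 0 lower, and 2 higher and 1 lower against female thorax. Of all probes, 29.3% were called higher and 47.2% lower against male thorax, and 28.8% and 47.4% against female thorax. With so few genes these counts are a description only. Mcm10 (CG9241, arm 2L) encodes a factor that acts as origins fire and stays with the fork. It had -0.49, -1.68, -1.84 and -1.81 in tips, against -6.15, -6.16, -5.83 and -6.00 in male thorax and -3.80, -6.10, -5.32 and -3.75 in female thorax. The groups did not overlap, and the differences were 4.58 ± 0.52 and 3.29 ± 0.52 (SE, n = 4 arrays each; limma adjusted p = 7.04e-06 and 0.000117).

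The GINS complex has 4 subunits that sit in the helicase together, and their probes did not move together. Sld5 (CG14549, arm 3R) had 2.61, 1.46, 1.64 and 1.60 in tips, against -2.83, -2.61, -2.56 and -2.51 in male thorax and -1.68, -2.04, -1.89 and -2.01 in female thorax. It had the lowest adjusted p of all members in both comparisons, with differences of 4.46 ± 0.27 and 3.74 ± 0.27 (SE, n = 4 arrays each; limma adjusted p = 3.01e-08 and 1.2e-07). Psf2 (CG18013, arm 2L) had 0.06, -1.40, -1.52 and -1.43 in tips, against -0.65, -0.21, -0.20 and -0.15 in male thorax and -0.17, -0.41, 0.07 and 0.10 in female thorax. Tip replicates 2 to 4 were below every thorax array, and replicate 1 was above every male thorax array. The differences were -0.77 (95% interval -1.53 to -0.01, limma adjusted p = 0.0605) and -0.97 (limma adjusted p = 0.0235), less the median of all probes they were 0.28 and 0.08, and without scaling they turned to 1.57 and 1.69. With quantile normalization they were -0.53 and -0.77, and with median scaling 0.14 and -0.12. Without tip replicate 1 the difference from male thorax was -1.15 (limma adjusted p = 9.72e-05).

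Psf1 (arm 3L), like Orc4, was not called over all arrays and was called without tip replicate 1. It had -8.65 on tip replicate 1 and -1.18, -1.22 and -1.20 on replicates 2 to 4, against -4.30, -4.21, -4.43 and -4.49 in male thorax and -4.01, -4.39, -4.52 and -4.02 in female thorax. The difference from male thorax was 1.30 (95% interval -1.76 to 4.35, limma adjusted p = 0.412) over all arrays and 3.16 (limma adjusted p = 1.32e-08) without replicate 1. With all arrays kept, Psf1 was called with array weights and without scaling, in both comparisons. Psf3 (CG2222, X) had 1.22, -0.53, -0.65 and -0.45 in tips by its brighter probe, against -1.85, -1.97, -0.55 and -0.47 in male thorax. The male arrays split by slide, those of slide A below those of slide B, and the difference was 1.11 (95% interval -0.12 to 2.33, limma adjusted p = 0.0911). Its other probe had -1.97, -3.52, -3.59 and -3.48 in tips, against -2.25, -2.40, -0.38 and -0.40 in male thorax, and was called lower, at -1.78 (limma adjusted p = 0.0311). The direction of Psf3 therefore depends on the probe.

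CDC45L (CG3658, X), which encodes Cdc45, had 1.04, -0.77, -0.63 and -0.67 in tips, against -1.67, -1.85, -1.08 and -0.73 in male thorax and -1.22, -1.89, -1.09 and -0.62 in female thorax. It was called higher against male thorax by 1.08 (limma adjusted p = 0.0466) and not against female thorax, where the difference was 0.94 (95% interval -0.04 to 1.93, limma adjusted p = 0.0758). Without tip replicate 1 the first was 0.64 (limma adjusted p = 0.088). Its other probe was called higher in both comparisons, by 1.18 and 0.98.

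**Figure D2:**
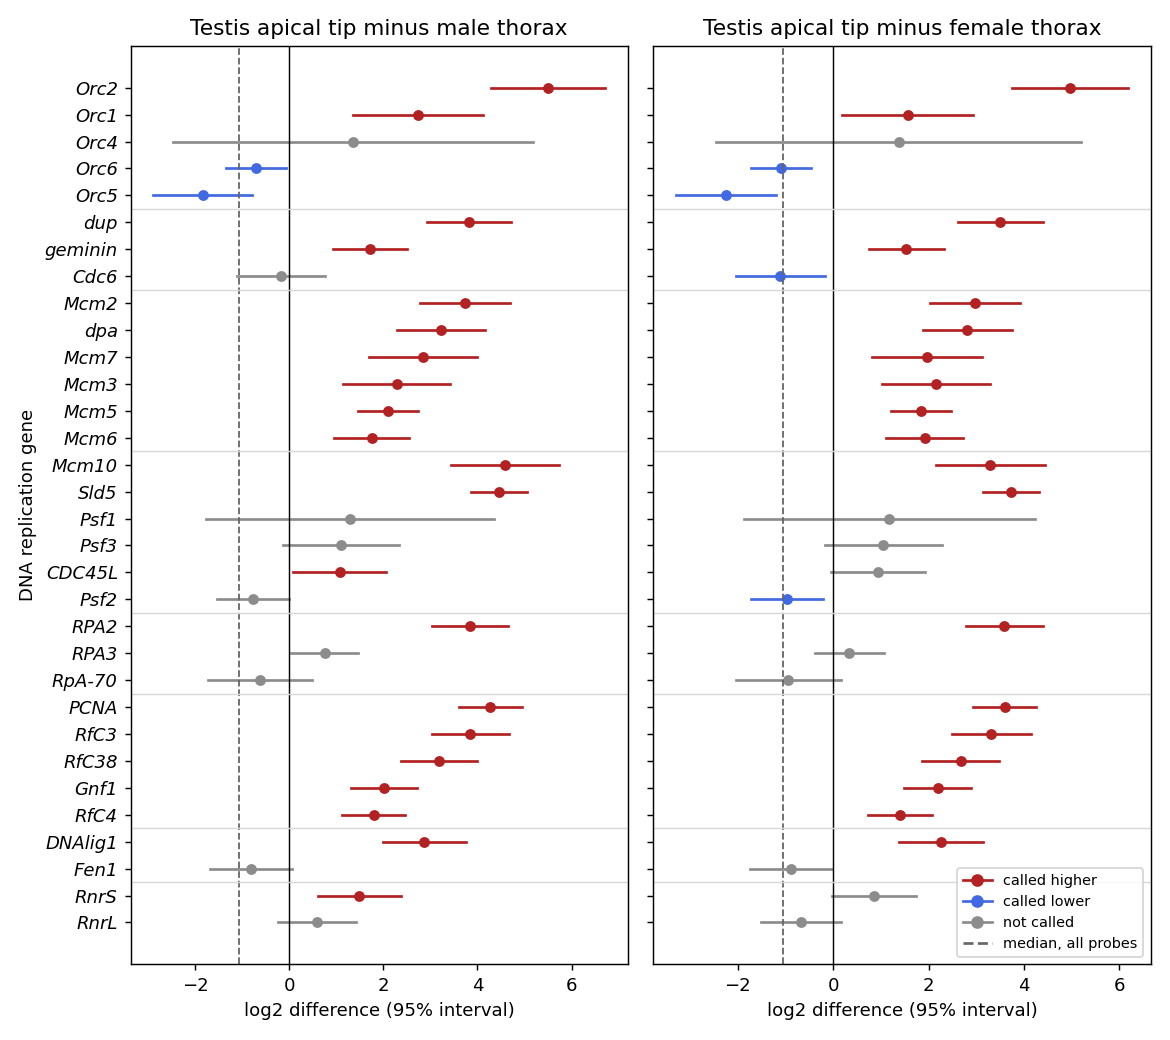
Log2 difference of each replication gene (rows, grouped by role) between testis apical tip and male thorax (left panel) and female thorax (right panel), with 95% intervals from limma. The dashed line is the median of all tested probes, -1.05 in both panels, and most replication genes lie to its right, with Orc5 to its left in both and Orc6 and Cdc6, at -1.10 and -1.11, just to its left in the right panel.

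RPA was split by subunit. RPA is a heterotrimer that covers single-stranded DNA. RPA2 (CG9273, arm 2L), which encodes the middle subunit, had 2.78, 1.30, 1.23 and 1.24 in tips, against -2.47, -2.15, -2.01 and -2.19 in male thorax and -1.75, -2.49, -1.99 and -1.55 in female thorax. It was called higher by 3.85 ± 0.36 and 3.59 ± 0.36 (SE, n = 4 arrays each; limma adjusted p = 1.46e-06 and 2.71e-06), with no overlap. RpA-70 (CG9633, arm 3R), which encodes the large subunit that holds most of the DNA-binding domains, had -2.12, -3.21, -3.34 and -3.25 in tips, against -3.15, -2.67, -2.0 and -1.65 in male thorax and -2.80, -2.89, -1.24 and -1.23 in female thorax. The groups overlapped, and the differences were -0.62 (95% interval -1.71 to 0.48) and -0.94 (95% interval -2.04 to 0.16), neither of them called. Less the median of all probes they were 0.44 and 0.11, and without scaling they were 1.73 and 1.71. RPA3 (X), which encodes the small subunit, had 2.30, 0.77, 0.78 and 0.83 in tips, against 0.35, 0.41, 0.43 and 0.46 in male thorax and 0.74, 0.82, 0.99 and 0.77 in female thorax. All tip arrays were above all male thorax arrays, but the difference of 0.76 (95% interval 0.04 to 1.47) had limma adjusted p = 0.0523. Without tip replicate 1 the difference from male thorax was 0.38 (limma adjusted p = 0.00829).

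The clamp and its loader were called higher in tips in 5 of 5 genes in both comparisons, by their brightest probes and with no overlapping arrays, beside the same 26.8% and 26.5% of all probes. PCNA (CG9193, arm 2R), the ring that holds the polymerases on DNA, had 1.93, 1.58, 1.64 and 1.69 in tips, against -2.61, -2.22, -2.57 and -2.86 in male thorax and -1.29, -2.30, -2.52 and -1.42 in female thorax. Tip replicate 1 was closer to the other tip arrays here than in most members. The differences were 4.27 ± 0.30 and 3.59 ± 0.30 (SE, n = 4 arrays each; limma adjusted p = 1.16e-07 and 5.04e-07), folds of 19.3 and 12.1. The RFC loader genes RfC3, RfC38, Gnf1 (the large subunit) and RfC4 were higher by 3.85, 3.19, 2.01 and 1.80 against male thorax. RfC4 (CG14999, arm 3L) had 0.94, -0.12, -0.17 and 0.04 in tips, against -1.98, -1.75, -1.52 and -1.24 in male thorax and -1.24, -1.70, -1.01 and -0.93 in female thorax. Its other probe, at -6.86 on tip replicate 1 and -0.52, -0.51 and -0.18 on the other 3, gave -0.16 (limma adjusted p = 0.914) against male thorax. The second Gnf1 probe gave 1.16 (limma adjusted p = 0.103).

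Fen1 and DNA ligase, which trim and seal Okazaki fragments, differed. DNAlig1 (CG5602, arm 2R) had 1.01, -0.52, -0.49 and -0.43 in tips, against -3.14, -2.86, -3.04 and -2.87 in male thorax and -1.58, -2.57, -3.10 and -2.23 in female thorax. It was called higher by 2.87 ± 0.40 and 2.27 ± 0.40 (SE, n = 4 arrays each; limma adjusted p = 4.07e-05 and 0.00028), and its second probe gave 3.18 and 2.81. Fen1 (CG8648, arm 2R) had -4.38, -5.16, -5.18 and -5.14 in tips, against -3.68, -3.93, -4.56 and -4.48 in male thorax and -3.40, -3.41, -4.75 and -4.78 in female thorax. Tip replicates 2 to 4 were below all thorax arrays. The Fen1 differences were -0.81 (95% interval -1.67 to 0.06, limma adjusted p = 0.082) and -0.88 (95% interval -1.75 to -0.02, limma adjusted p = 0.0605). Less the median of all probes they were 0.25 and 0.17, and without scaling they were 1.54 and 1.77.

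Ribonucleotide reductase makes the deoxynucleotides that replication uses, from a large and a small subunit. RnrS (CG8975, arm 2R), the small subunit, had 1.42, -0.07, -0.12 and -0.13 in tips, against -1.54, -1.20, -0.97 and -1.16 in male thorax and -0.13, -1.30, -0.84 and -0.06 in female thorax. It was called higher against male thorax by 1.49 (limma adjusted p = 0.00531), with no overlap, and not against female thorax, where female replicates 1 and 4 stood at the level of the tips and the difference was 0.86 (95% interval -0.03 to 1.74, limma adjusted p = 0.072). RnrL (CG5371, arm 2L), the large subunit, had -0.42, -1.22, -1.25 and -0.98 in tips, against -1.49, -1.59, -1.23 and -1.94 in male thorax and -0.35, -1.38, 0.39 and 0.16 in female thorax. The RnrL differences were 0.59 (95% interval -0.24 to 1.42) and -0.68 (95% interval -1.51 to 0.16), neither called, and the second was 0.37 less the median of all probes and 1.98 without scaling.

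**Figure D3:**
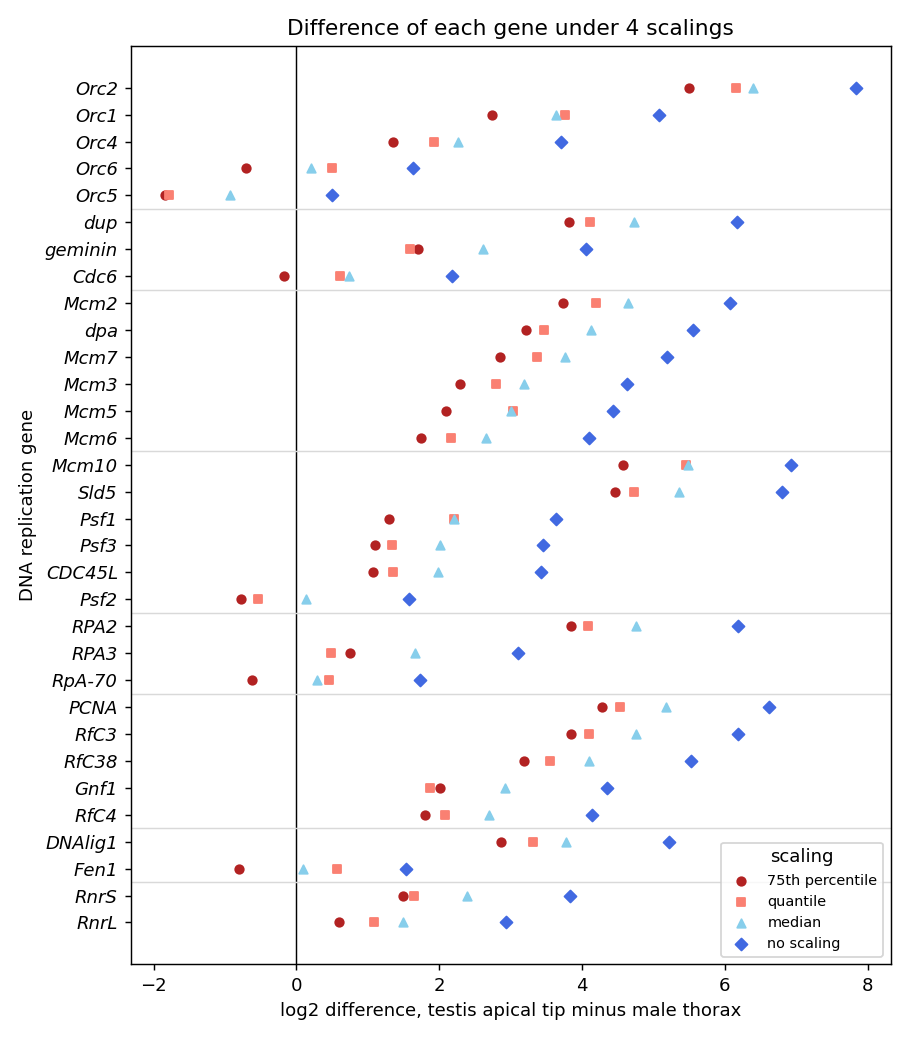
Log2 difference between testis apical tip and male thorax (x axis) of each replication gene (rows) under 4 ways of scaling the arrays. The points shift to the right from 75th percentile scaling to no scaling in every gene, and Orc5, Orc6, Cdc6, Psf2, RpA-70 and Fen1 have negative values at the 75th percentile and positive values without scaling.

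**Figure D4:**
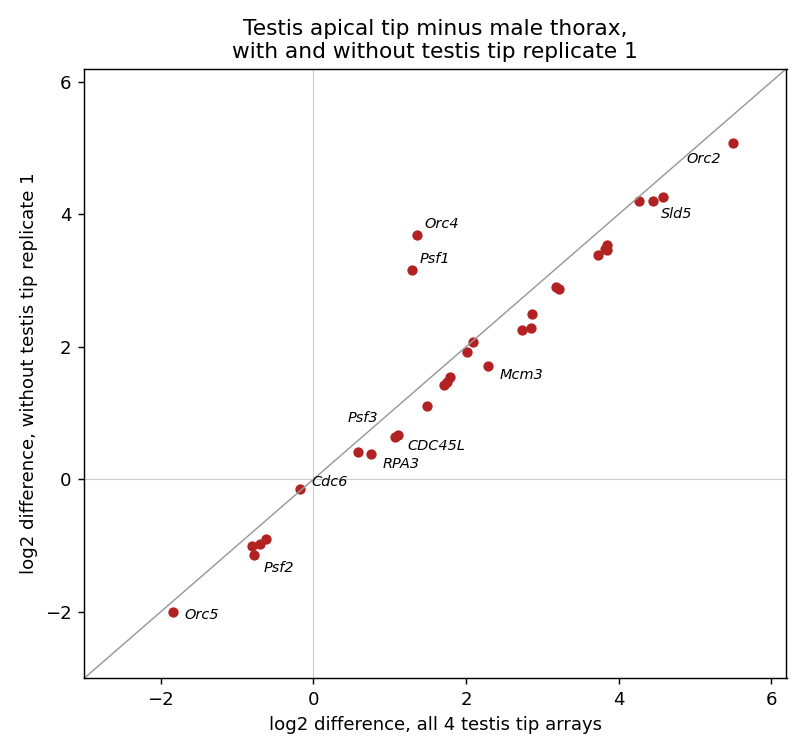
Log2 difference between testis apical tip and male thorax of each replication gene with all 4 tip arrays (x axis) and without tip replicate 1 (y axis), with the line of equality. Orc4 and Psf1 lie far above the line, at 3.69 and 3.16 without the array, and most other genes lie a little below it.

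Genes of the same pathway outside the list were mostly higher in tips as well. Of 34 further replication genes, 23 were called higher and 7 lower against male thorax, and 22 higher and 7 lower against female thorax, beside the 29.3% and 47.2% and the 28.8% and 47.4% of all probes, with medians of 2.01 and 1.98 beside -1.05 for all probes. All 34 were measured, and they were chosen with results of these data known. Of 8 polymerase and primase genes 7 were called higher. DNApol-epsilon2, a polymerase epsilon subunit, had 1.04, 0.09, 0.12 and 0.10 in tips, against -4.48, -5.87, -5.53 and -6.67 in male thorax, a difference of 5.98. DNApol-alpha50, the catalytic primase subunit, had -2.98, -4.86, -4.96 and -4.91 in tips, against -3.12, -2.89, -3.28 and -2.91 in male thorax, and was called lower, at -1.38, with a difference of 0.96 without scaling, -0.16 with quantile normalization and -0.47 with median scaling. Of the kinases and firing factors, 5 of 6 were called higher, led by CycE, the cyclin that drives entry into S phase, with 6.28. Fork factors were called higher in 6 of 7, among them Ctf4, which ties polymerase alpha to the helicase, with 4.79, and Top2 with 3.60. Of the genes for nucleotide supply, dUTPase was called higher by 2.11, whereas Ts, for thymidylate synthase, was called lower, at -3.19, and stayed negative without scaling, at -0.84. In the group of transcription regulators, E2f2 and Dref were called higher by 2.53 and 1.14. E2f, Dp and Rbf were called lower, at -1.03, -1.13 and -0.86, but were 1.32, 1.22 and 1.49 without scaling. With quantile normalization they were -0.092, -1.21 and 0.19, and with median scaling -0.12, -0.22 and 0.049.

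Chromosome was recorded for each gene. The 5 members on the X (Mcm3, Mcm6, CDC45L, Psf3 and RPA3) had a median difference from male thorax of 1.11, with a range of 0.76 to 2.29, beside 2.09 for the 27 autosomal members, with a range of -1.84 to 5.49. Against female thorax the medians were 1.05 and 1.85. With 5 genes on the X this is a description only.

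Male and female thorax did not differ by call in any member. Of 32 genes limma called 0 in either direction, beside 0.153% of all probes called higher in males and 0.37% called lower. At an unadjusted p under 0.05, 5 members were lower in males and 0 higher, beside 3.90% and 3.72% of all probes. With array weights 14 were called lower in males, and without tip replicate 1, which adds to the common estimate of spread, 2 were. Over all 24878 probes these fits called 3082 and 670 lower in males, and 2182 and 635 higher. The members' median difference between male and female was -0.40, beside 0.04 for all probes. It was positive in 3 of 32 members, and the share of positive differences over all probes was not taken. Sld5 was lower on all male arrays than on all female arrays, with a difference of -0.72 (95% interval -1.31 to -0.13, limma adjusted p = 0.514), and so was RPA3, with -0.42 (95% interval -1.13 to 0.30, limma adjusted p = 0.972). The share of all probes whose male and female arrays do not overlap was not taken, so this separation cannot be read as a trait of these genes. RnrL had a difference of -1.27 (limma adjusted p = 0.323) and Mcm10 of -1.29 (limma adjusted p = 0.56), each with overlapping arrays.

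Within female thorax, replicates 1 and 4 were often the high pair. In 15 of 32 members (46.9%) both were above replicates 2 and 3, beside 6.74% of all 24784 probes with a value on every array. These 15 are Mcm2, Mcm3, dpa, Mcm5, Mcm6, Mcm7, Mcm10, Orc1, Orc2, dup, Psf1, PCNA, RPA2, RnrS and DNAlig1. The pair was picked after the values were seen, and the 2 arrays come from different slides. Of the 9 germ cell markers, vas, nos and twe had replicates 1 and 4 on top by over 1 log2 unit. In bgcn and can the pair was on top by 0.001 and 0.016, and in the other 4 it was not. Among these, aly had -4.27, -3.84, -5.51 and -5.43 and mia had -2.19, -2.18, -1.48 and -1.79 on replicates 1 to 4, well above background on all 4 arrays, whereas bam had -5.20, -6.89, -5.81 and -6.43 and sa had -6.22, -6.09, -5.95 and -5.94. The signal of vas, which encodes a germline RNA helicase, was 1.17, 0.53, 0.31 and 0.54 in tips, against -7.94, -7.03, -6.18 and -6.83 in male thorax and -2.23, -7.31, -6.55 and -2.39 in female thorax. That of nos, which encodes a germline translational repressor, was -3.82, -0.86, -1.21 and -0.93 in tips, against -5.24, -5.13, -6.81 and -7.45 in male thorax and 0.13, -4.32, -4.40 and -0.76 in female thorax. CycE had -2.23, -4.81, -5.77 and -3.20 on female thorax replicates 1 to 4. The signal of twe, which encodes the Cdc25 phosphatase of meiosis, was -4.18, -6.69, -5.54 and -4.05 on the female arrays. The spermatogonial gene bgcn was well above background on 0 of the 4 female arrays, at -7.67 to -7.42. The log2 of the scaled signal summed over the 9 markers was 4.67 to 5.17 in tips, against -1.41 to -0.79 in male thorax, highest on replicate 3, and 0.75, -1.35, -0.98 and 0.26 on female thorax replicates 1 to 4. The part of germ cell RNA in these results was not tested. Leaving out female replicates 1 and 4 together changed the count against female thorax to 20 higher and 2 lower, and the members' median difference to 2.34. Over all 24878 probes that fit called 6252 higher and 10731 lower, with a median difference of -1.04. The same step took the members' median difference between male and female thorax to -0.14, beside 0.04 for all probes.

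**Figure D5:**
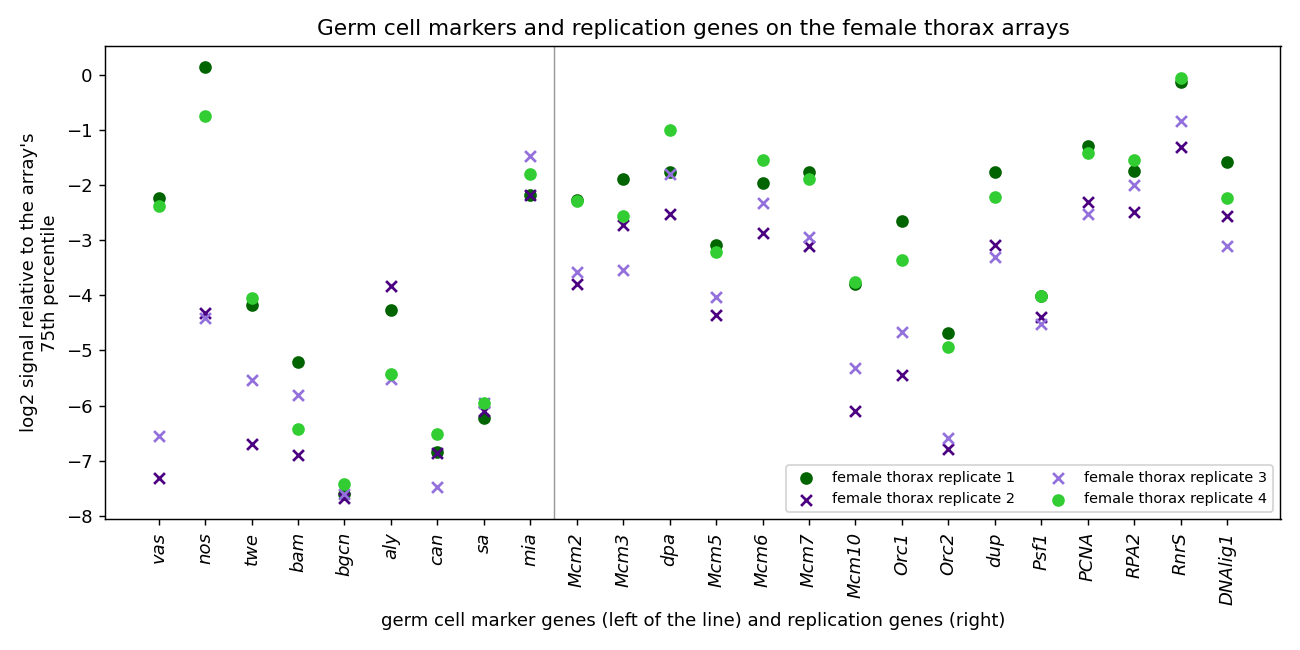
Scaled log2 signal (y axis) of 9 germ cell markers (left of the line) and of the 15 replication genes with female thorax replicates 1 and 4 highest (right) on the 4 female thorax arrays. Replicates 1 and 4 are the filled circles and replicates 2 and 3 the crosses, and vas, nos and twe show the same pair on top by over 1 log2 unit while the other 6 markers do not.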

How the data were processed

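Signals were read from 12 one-color Agilent arrays, 4 per tissue, on 3 slides. The spot intensity values, as deposited, were background-subtracted by Agilent Feature Extraction (10.5.1.1 in the file headers, 9.1 in the submitters' processing notes), unscaled. A tissue table of log2 means that the authors made was an alternative. Here, outlier spots were set aside, replicate spots averaged, log2 taken and the 75th percentile of each array subtracted. Probes with a mean log2 of at least 7 in any tissue were tested over all 12 arrays with limma 3.58.1 (R 4.3.3), Benjamini-Hochberg threshold 0.05. The fit was tested on simulated data with independent noise. Those data held no slide effect and no array like tip replicate 1, so they cannot show how the fit handles either. No spot was saturated. Replicate numbers follow slide and position and only name arrays. The array design is annotated on an older build than the reference annotation, so only chromosome arms are given. Members and lists were chosen with earlier results of these data known. All 32 measured members are named, and values per array are given for the extremes of each role, for members whose probes disagree or whose call differs between comparisons, and for Orc1, Orc4, Orc6, Psf1, Sld5 and RPA3, which were added after their values were seen. A planned promoter search was not run. The value of 1 gene of the wider pathway list is not reported here. Alternatives covered scaling, background (normexp, offset 50), filter, slide, weights, probe choice and arrays left out. The number of arrays limits precision.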

Additional observations from a re-analysis of the deposited data

Results flagged for a closer look

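In each tissue the highest and lowest of the 4 arrays were set against the rest for every member, and a gap that made up more of the whole range than Dixon's 95% critical value was taken as standing out, which chance gives in about 5% of groups. Of 96 groups, 26 stood out, 23 of them on testis apical tip replicate 1. In 21 of these that array was the highest, with scaled log2 signals of Mcm2 1.01, Mcm3 1.17, dpa 2.08, Mcm6 0.57, Mcm7 1.25, Mcm10 -0.49, Orc1 -1.04. Further such values were Orc2 0.46, dup 1.95, geminin 3.13, CDC45L 1.04, Psf2 0.057, Psf3 1.22, Sld5 2.61. The remaining ones were RPA2 2.78, RPA3 2.30, RpA-70 -2.12, RnrS 1.42, RfC3 2.37, DNAlig1 1.01, Fen1 -4.38. In 2 it was the lowest, with Orc4 -8.69 and Psf1 -8.65. The other 3 were low arrays in thorax, Mcm3 at -3.07 on male thorax replicate 4, Orc6 at -2.95 on female thorax replicate 2 and Psf2 at -0.65 on male thorax replicate 1. The rule was not run over all probes, so these counts cannot be read as a trait of replication genes.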

How the results depend on the processing

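Of the 21 genes called higher against male thorax and the 19 against female thorax, none changed direction with quantile normalization, the background correction or the slide block. Nor did any when an array of either compared tissue was left out. The filter, and leaving out an array of the third tissue, cannot change a difference and so say nothing about direction. Members near or below 0 moved with the scaling. No paired analysis was possible because replicate numbers only name arrays. Median scaling, and the fits without 2 arrays together or without scaling and without tip replicate 1, were chosen after seeing the data. The cause of the changes below was not tested, other than that fits within a slide and without arrays hold fewer samples.

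Members called higher against male thorax were 21, and 11 within slide B. Members called lower against male thorax were 2, and 0 without scaling, within slide B, with median scaling and with no scaling and without tip replicate 1. The count was 1 with quantile normalization, no filter, the mean of a gene's probes and without female thorax replicates 1 and 4 together. It was 4 with normexp and without tip replicate 1 and male thorax replicate 3 together, 5 with array weights, and 1 to 4 with each array left out in turn. Against female thorax, higher calls were 19, and 31 without scaling, with or without tip replicate 1. Lower calls against female thorax were 4, and 0 without scaling, with or without tip replicate 1, 1 with median scaling, 2 with quantile normalization, with only the 8 arrays compared and without female replicates 1 and 4, 7 with array weights, and 2 to 6 with each array left out. Between male and female thorax, lower calls were 0, and 14 with array weights, 1 without tip replicate 1 and male replicate 3, and 0 to 2 with each array left out.

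Over all probes, higher and lower calls against male thorax were 7296 and 11747. They were 11980 and 6097 without scaling, 13872 and 6638 without scaling and without tip replicate 1, 3491 and 6648 where every one of the 12 arrays was well above background, and 3956 and 6722 within slide B. Against female thorax they were 7175 and 11796, and 12816 and 5467, 14563 and 6022, and 3384 and 6726 under the first 3 of these settings. Between male and female thorax they were 38 and 92. They were 18 higher with normexp, 20 and 52 with only probes well above background, 61 higher within slide A, 126 and 168 with only the 8 arrays compared, 2182 and 3082 with array weights, 491 and 601 without tip replicate 1 and male replicate 3, 15 and 40 without female replicates 1 and 4, and 188 higher without scaling and without tip replicate 1. With each array left out they ran from 25 to 635 higher and from 71 to 670 lower, both highest without tip replicate 1.

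Without scaling, differences that turned positive against male thorax were 0.50 for Orc5, 1.64 for Orc6, 2.17 for Cdc6, 1.57 for Psf2, 1.73 for RpA-70 and 1.54 for Fen1. Against female thorax they were 0.41 for Orc5, 1.55 for Orc6, 1.55 for Cdc6, 1.69 for Psf2, 1.71 for RpA-70, 1.98 for RnrL and 1.77 for Fen1. The authors' table gave the same values for these 13 differences. Without scaling and without tip replicate 1 they were 0.34, 1.36, 2.20, 1.20, 1.44 and 1.34 in the order given against male thorax, and 0.24, 1.28, 1.57, 1.31, 1.42, 1.79 and 1.57 against female thorax. Median scaling turned Orc6 to 0.20, Cdc6 to 0.74, Psf2 to 0.14, RpA-70 to 0.29 and Fen1 to 0.10 against male thorax, and RnrL to 0.17 against female thorax. Quantile normalization turned Orc6 to 0.50, Cdc6 to 0.62, RpA-70 to 0.45 and Fen1 to 0.57 against male thorax, and RpA-70 to 0.032 and Fen1 to 0.32 against female thorax. The mean of a gene's probes turned Orc5 to 0.14 and Psf3 to -0.34 against male thorax, and Psf3 to -0.35 against female thorax. Within slide B, Orc4 was -0.87, Psf1 -0.45 and Cdc6 0.026 against male thorax. Within slide C, Psf3 was -0.090 and RPA3 -0.078 against female thorax. Cdc6 was 0.39 with the slide as a block and -0.32 to 0.030 against male thorax with each array left out, the highest without male thorax replicate 1. RPA3 against female thorax was -0.038 to 0.47 with each array left out, the lowest without tip replicate 1, and -0.038 without tip replicate 1 and male replicate 3.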
